A study of Arabidopsis thaliana with 16 samples.

Results

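Chlorophyll is built in plastids by a chain of enzymes encoded in the nucleus, and 10 genes of that chain are described here in hypocotyls, the embryonic stems, of Arabidopsis seedlings. They are HEMA1 (AT1G58290), GUN4 (AT3G59400), CHLH (AT5G13630), CHLM (AT4G25080), CRD1 (AT3G56940), PORA (AT5G54190), PORB (AT4G27440), PORC (AT1G03630), CHLG (AT3G51820) and CAO (AT1G44446). They were picked by their locus codes, and the choice was made with earlier results of these data known. They are 10 of the 33296 genes with a name in the count table. All 10 passed the filter on low counts, which left 20505 genes for the tests.

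Messenger RNA was sequenced from hypocotyls of seedlings grown on plates for 6 days after germination, at 28 °C or at 22 °C throughout, under long days of white light. The line brl3-2 is a mutant of BRL3, a brassinosteroid receptor kinase related to BRI1. In the same mutant background pSUC2:BRL3;brl3-2, abbreviated to pSUC2-BRL3, has a BRL3-GFP transgene driven by the SUC2 promoter, which is active in phloem companion cells. BRL3ox drives BRL3-GFP from the general 35S promoter, and Col-0 is the wild type. Each of the 8 combinations of genotype and temperature had 2 libraries, 16 in all. The labels call these biological replicates and do not say whether they came from separate sowings. The p-values reflect only how far these libraries differ, which may be technical.

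Levels are given as CPM, read counts scaled to a common library size with TMM, for replicate 1 and then replicate 2 of a group. Levels of different genes are compared only as CPM per kilobase of exon. Changes are log2 values from edgeR's quasi-likelihood test, and a gene is called, or said to have risen or fallen, at a Benjamini-Hochberg adjusted p below 0.05 over all 20505 genes.

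Total counts ran from 23021365 to 26563600 per library at 28 °C and from 19013878 to 22791228 at 22 °C. BRL3 itself was at 0.733 to 1.04 CPM at 28 °C and 0.531 to 0.791 CPM at 22 °C in brl3-2, at 171 and 178 against 66.2 and 38.6 CPM in pSUC2-BRL3, at 2186 and 2478 against 715 and 817 CPM in BRL3ox, and at 22.9 and 28.8 against 19.5 and 10.5 CPM in Col-0, in the order that the labels give. Libraries of one group stood apart at least 2-fold at 1576 genes in pSUC2-BRL3 at 28 °C and at 4523 genes in BRL3ox at 22 °C, against 623 to 1158 genes in the other 6 groups. Replicate 1 of pSUC2-BRL3 at 28 °C and replicate 2 of BRL3ox at 22 °C are called the doubted libraries, and counts of calls are also given without them. It is not settled which of the libraries from pSUC2-BRL3 seedlings at 28 °C is the odd one, so replicate 2 was left out in its place as a further check, here called the other pair. Fits without either pair leave 1 library of pSUC2-BRL3 at 28 °C and 1 of BRL3ox at 22 °C, and each lone library is assumed to vary like the libraries of the other groups. Both pairs leave out replicate 2 of BRL3ox at 22 °C. Replicate 1 of that group was left out only where libraries were left out in turn, so neither pair checks the results without it. No gene marks hypocotyl alone. Phloem marker SUC2 was present at 69.6 to 118 CPM. The root hair markers COBL9 and EXPA7 stayed at or under 0.590 CPM, but the root markers CASP1, PHT1;4 and IRT1 reached 36.3, 16.8 and 7.97 CPM. The stem cell markers WUS and CLV3 stayed at or under 0.396 CPM. Of the other shoot apex markers KNAT1 was at 17.7 to 80.9 CPM, ANT at 8.41 to 31.5 CPM and STM at 1.56 to 8.37 CPM.

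As background, chlorophyll synthesis starts from glutamate and runs through 5-aminolevulinic acid and a tetrapyrrole trunk that it shares with heme. At the branch point magnesium chelatase directs protoporphyrin into chlorophyll, and the intermediates that follow are photosensitisers, which generate singlet oxygen in light when they are not passed on. HEMA1, glutamyl-tRNA reductase, makes the first committed step; CHLH is the large porphyrin-binding subunit of magnesium chelatase and GUN4 a porphyrin-binding protein that stimulates it. CHLM methylates magnesium protoporphyrin, CRD1 is a subunit of the cyclase that closes the isocyclic ring, and PORA, PORB and PORC reduce protochlorophyllide in a reaction that needs light. CHLG adds the phytyl tail and CAO turns chlorophyll a into chlorophyll b. In Arabidopsis PORA is known for its activity in dark-grown seedlings and the rapid loss of its mRNA in light, PORB for its presence in darkness and light, and PORC for its dependence on light.

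The sequences just before the annotated starts of 4 members are shown because they hold an evening element or a G-box, the motifs searched for their link to the clock and to light. They are read 5′ to 3′ on the strand of the gene from the RefSeq genome TAIR10.1, and each ends at the base before the start of the gene model. The first 2 belong to PORA and PORB, and capitals mark the evening element AAAATATCT, a motif of clock-regulated promoters. The other 2 belong to CRD1 and CAO, and capitals mark the G-box CACGTG, which bZIP and bHLH factors such as HY5 and the PIFs can bind.
PORA promoter, chr5:21992815-21992999, minus strand: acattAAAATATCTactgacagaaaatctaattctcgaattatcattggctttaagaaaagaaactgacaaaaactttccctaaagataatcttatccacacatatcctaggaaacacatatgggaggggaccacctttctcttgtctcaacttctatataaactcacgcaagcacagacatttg
PORB promoter, chr4:13725361-13725545, plus strand: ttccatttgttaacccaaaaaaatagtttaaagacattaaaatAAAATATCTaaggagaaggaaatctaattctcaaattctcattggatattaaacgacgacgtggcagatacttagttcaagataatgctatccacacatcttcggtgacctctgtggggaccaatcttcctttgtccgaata
CRD1 promoter, chr3:21076320-21076504, plus strand: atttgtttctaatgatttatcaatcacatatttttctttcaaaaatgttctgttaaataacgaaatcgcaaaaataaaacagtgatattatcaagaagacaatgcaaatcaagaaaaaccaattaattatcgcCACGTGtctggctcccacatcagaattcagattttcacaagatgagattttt
CAO promoter, chr1:16851272-16851456, minus strand: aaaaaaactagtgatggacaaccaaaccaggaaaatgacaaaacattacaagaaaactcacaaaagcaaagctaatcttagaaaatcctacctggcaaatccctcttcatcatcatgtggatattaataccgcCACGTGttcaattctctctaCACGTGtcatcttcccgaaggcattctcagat

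The evening element begins 180 bases upstream of the gene start in PORA and 142 bases upstream in PORB, and no other member had one in the 250 bases searched on both strands. Of 27443 windows of 250 bases before the genes of the genome, 648 held it, or 2.361%. PORA and PORB also share a run of 13 bases, aaatctaattctc, which begins 162 bases upstream in PORA and 123 bases upstream in PORB. The G-box begins 52 bases upstream in CRD1, and 52 and 32 bases upstream in CAO. It was found in 2 of the 10 members and in 1780 of the 27443 windows, or 6.486%. The related PBE-box CACATG was found in 1 member, CAO, against 11.09% of all windows, and the letters CCAATC in 2 members, GUN4 and PORB, against 10.23%. HEMA1, CHLH, CHLM, PORC and CHLG, which fell in each genotype, had neither the evening element nor the G-box. CRD1 and CAO, which have the G-box, also fell in each genotype. Of the members with the evening element, PORB rose in the mean over the genotypes, and PORA, with few counts, was not called. Whether PORA and PORB differ in their responses was not tested, nor was any link between motifs and responses. These matches are a description of the letters in the window. The windows of GUN4, CHLM, CRD1, PORB and PORC overlap the neighbouring genes AT3G59410, AT4G25070, AT3G56930, AT4G27435 and AT1G03620 in that order.

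The first comparison was 28 °C minus 22 °C in each genotype. Of the 10 genes, 0 rose and 7 fell in brl3-2, 0 rose and 7 fell in pSUC2-BRL3, 0 rose and 8 fell in BRL3ox, and 1 rose and 7 fell in Col-0. Among all genes tested the share that fell was 23.3% in brl3-2, 19.5% in pSUC2-BRL3, 19.3% in BRL3ox and 23.3% in Col-0, and the share that rose was 25.8%, 19.6%, 18.3% and 21.7% in the same order. Without the doubted libraries the median log2 change of the 10 genes was -0.98 in brl3-2, -0.95 in pSUC2-BRL3, -1.41 in BRL3ox and -0.91 in Col-0. With the other pair left out it was -0.98, -1.62, -1.41 and -0.90 in that order. In a fit of the BRL3ox libraries alone 2 of the 10 were called, where 1.527% of all genes were. With all libraries the median log2 change of the 10 genes was -0.99 in brl3-2, -1.23 in pSUC2-BRL3, -1.28 in BRL3ox and -0.92 in Col-0, against 0.04, 0.03, -0.01 and 0.02 over all genes tested. In the mean of the 4 responses 8 genes fell, PORB rose and PORA was not called, with and without either pair of libraries, where 33.5% of all genes fell and 35.9% rose. HEMA1, CHLM, CRD1, PORC and CAO had all 8 libraries at 28 °C below all 8 at 22 °C, which held for 11.5% of the genes tested, and 0 of the 10 had the reverse, which held for 11.6%. Summed over the 10 genes the level was 3537 to 5471 CPM at 28 °C and 8162 to 11769 CPM at 22 °C. In bulk tissue fewer cells that express a gene and less of its RNA in each cell cannot be told apart.

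**Figure D1:**
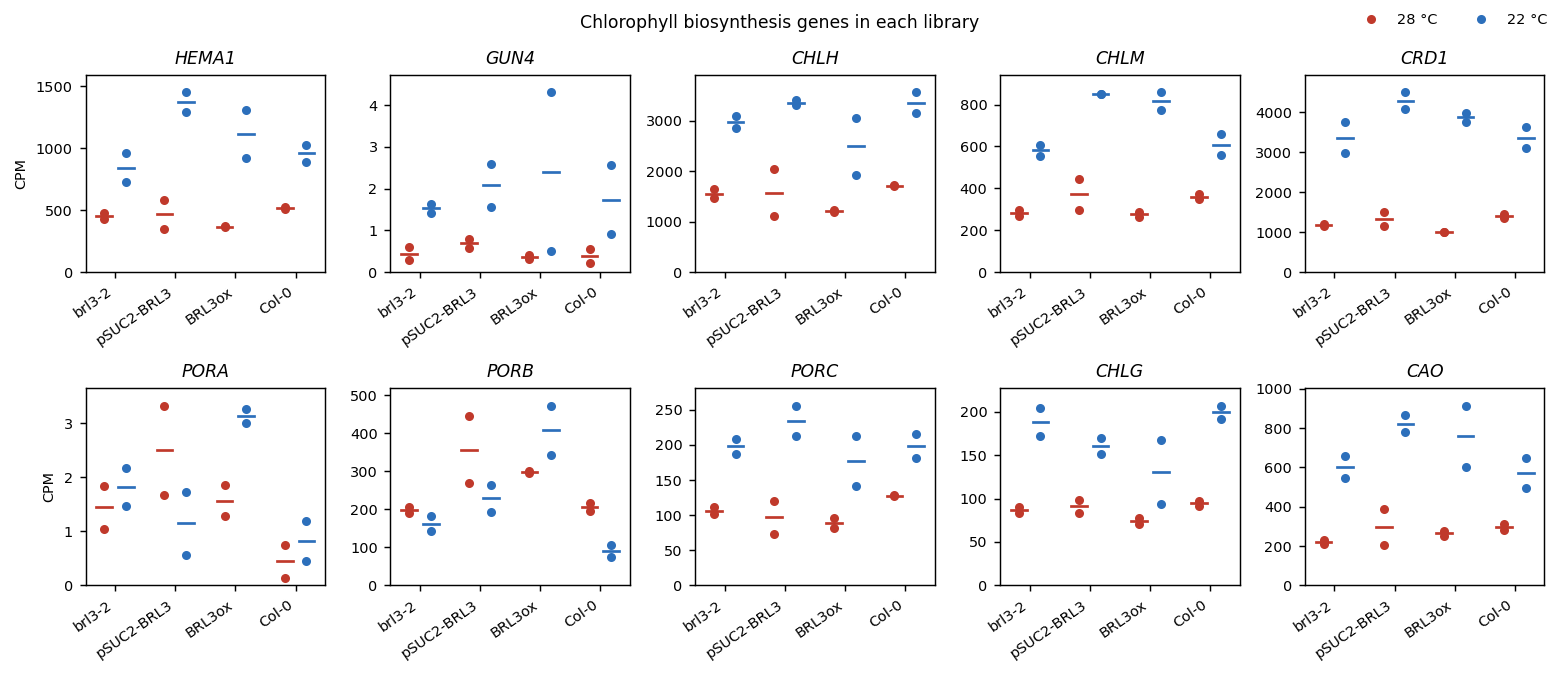
CPM of the 10 genes in each library, with a panel for each gene, its own axis from 0, and the genotypes along the x axis; red points are the libraries at 28 °C, blue points those at 22 °C, and short lines the mean of the 2 libraries. In the panels of HEMA1, CHLM, CRD1, PORC and CAO every red point lies under every blue one, and in the panel of PORB the order of the colours differs between genotypes.

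HEMA1, the entry step, lies on the minus strand of chromosome 1 (21623700 to 21626402, TAIR10.1) with 3 exons. It stood at 429 and 479 CPM at 28 °C against 959.6 and 726 CPM at 22 °C in brl3-2, and 345 and 586 CPM at 28 °C against 1292 and 1450.5 CPM at 22 °C in pSUC2-BRL3. It stood at 371 and 364 CPM at 28 °C against 1308 and 919.6 CPM at 22 °C in BRL3ox, and 523 and 513 CPM at 28 °C against 892 and 1029.7 CPM at 22 °C in Col-0. Each genotype was lower at 28 °C, with no overlap between any library at 28 °C and any at 22 °C. The mean response was log2 -1.24, SE 0.12, adjusted p = 3.94e-06, and HEMA1 was called lower in each genotype, by -0.89 in brl3-2, -1.56 in pSUC2-BRL3, -1.60 in BRL3ox and -0.89 in Col-0. In Col-0 the call was lost without replicate 2 at 22 °C (adjusted p = 0.0693) or without replicate 1 or 2 at 28 °C (adjusted p = 0.0602 and 0.0669), and in brl3-2 without replicate 1 at 22 °C (adjusted p = 0.0923) or replicate 1 at 28 °C (adjusted p = 0.0733).

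CHLH lies on the minus strand of chromosome 5 (4387307 to 4392429) with 5 exons, and RefSeq lists it as GUN5. CHLH was measured at 1644 and 1473 CPM at 28 °C against 3094 and 2852 CPM at 22 °C in brl3-2, and 1110.2 and 2044 CPM at 28 °C against 3309 and 3413 CPM at 22 °C in pSUC2-BRL3. The values were 1231 and 1192 CPM at 28 °C against 3066 and 1925 CPM at 22 °C in BRL3ox, and 1732 and 1701 CPM at 28 °C against 3154 and 3563 CPM at 22 °C in Col-0. Within each genotype both libraries at 28 °C were lower, while the higher library of pSUC2-BRL3 at 28 °C lay above the lower library of BRL3ox at 22 °C, both in groups with a doubted library. The mean response was log2 -1.01, SE 0.13, adjusted p = 3.65e-05, and CHLH fell in each genotype, by -0.97 to -0.93 in Col-0 and brl3-2 and by -1.09 to -1.04 in pSUC2-BRL3 and BRL3ox. The call of a genotype was lost at adjusted p of 0.0502 to 0.0726 when some of its own libraries were left out: for brl3-2 replicate 1 at 22 °C or 2 at 28 °C, replicate 1 at 28 °C of pSUC2-BRL3, replicate 1 at 22 °C or either at 28 °C of BRL3ox, and replicate 2 at 22 °C or either at 28 °C of Col-0.

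GUN4 has a single exon on the minus strand of chromosome 3 (21948501 to 21949796). Its counts were the lowest with those of PORA, at 6 to 83 per library. GUN4 stood at 0.292 and 0.594 CPM at 28 °C against 1.42 and 1.64 CPM at 22 °C in brl3-2, and 0.583 and 0.803 CPM at 28 °C against 1.57 and 2.60 CPM at 22 °C in pSUC2-BRL3. Its values were 0.309 and 0.416 CPM at 28 °C against 4.31 and 0.503 CPM at 22 °C in BRL3ox, and 0.558 and 0.217 CPM at 28 °C against 2.57 and 0.906 CPM at 22 °C in Col-0. The replicates of BRL3ox at 22 °C lay far apart, and replicate 2, the doubted one, overlapped the range at 28 °C of 0.217 to 0.803 CPM. The mean response was log2 -2.06, SE 0.42, adjusted p = 0.000923, and of the genotypes only BRL3ox was called (log2 -2.73, adjusted p = 0.0243). That call was lost without replicate 1 of BRL3ox at 22 °C (log2 -0.46, adjusted p = 0.688) or either replicate at 28 °C (adjusted p = 0.12 and 0.0937). Without both doubted libraries GUN4 was also called in brl3-2 (log2 -1.78, adjusted p = 0.0208) and Col-0 (log2 -2.14, adjusted p = 0.00954). With the other pair left out it was called in pSUC2-BRL3 as well (log2 -1.81, adjusted p = 0.0497). Of the 1296 bases of the GUN4 exon 946 are shared with AT3G59410 on the opposite strand, which had 914 to 1218 counts at 28 °C and 266 to 537 at 22 °C. The strand setting of the counting is not given in the sources used here, and the GUN4 values are uncertain for that reason.

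CHLM lies on the plus strand of chromosome 4 (12876822 to 12878703) with 2 to 4 exons by transcript. The methyltransferase gene was read at 298 and 267 CPM at 28 °C against 607 and 556 CPM at 22 °C in brl3-2, and 297 and 446 CPM at 28 °C against 849 and 849 CPM at 22 °C in pSUC2-BRL3. It was read at 288 and 263 CPM at 28 °C against 774 and 858 CPM at 22 °C in BRL3ox, and 373 and 349 CPM at 28 °C against 557 and 658 CPM at 22 °C in Col-0. No library at 28 °C reached the lowest library at 22 °C. Over the genotypes CHLM fell by log2 -1.14, SE 0.09, adjusted p = 6.73e-07. It was called in each genotype and under each alternative that was run. CHLM ends 37 bases inside AT4G25090 on the opposite strand, a gene with 3 to 32 counts.

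CRD1, the cyclase subunit, lies on the plus strand of chromosome 3 (21076505 to 21078443) with 5 or 6 exons. CRD1 stood at 1207 and 1158 CPM at 28 °C against 3761 and 2974 CPM at 22 °C in brl3-2, and 1151 and 1513 CPM at 28 °C against 4074 and 4497 CPM at 22 °C in pSUC2-BRL3. In the other lines it stood at 1000.1 and 995 CPM at 28 °C against 3764.5 and 3980.5 CPM at 22 °C in BRL3ox, and 1458 and 1357 CPM at 28 °C against 3098 and 3625 CPM at 22 °C in Col-0. The highest library at 28 °C, at 1513 CPM, was far under the lowest at 22 °C, at 2974 CPM. The mean response was log2 -1.60, SE 0.09, adjusted p = 5.49e-08, a 3.04-fold difference. CRD1 was called lower in each genotype, by -1.51 in brl3-2, -1.69 in pSUC2-BRL3, -1.96 in BRL3ox and -1.26 in Col-0, and under each alternative. Per length CRD1 had the highest level of the 10 genes, with a median of 792 CPM per kilobase at 28 °C and 2520.2 at 22 °C, followed by CHLH at 328 and 657. At the low end PORA was at 0.889 and 0.965 and GUN4 at 0.376 and 1.24 CPM per kilobase, where the GUN4 values are uncertain because of its overlap.

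CHLG, chlorophyll synthase, lies on the minus strand of chromosome 3 (19215930 to 19219128) with 14 exons and is listed as G4 in RefSeq. CHLG was at 90.7 and 83.1 CPM at 28 °C against 205 and 172 CPM at 22 °C in brl3-2, and 83.9 and 98.5 CPM at 28 °C against 152 and 169 CPM at 22 °C in pSUC2-BRL3. Its levels were 71.0 and 77.6 CPM at 28 °C against 168 and 94.1 CPM at 22 °C in BRL3ox, and 97.4 and 91.6 CPM at 28 °C against 191 and 207 CPM at 22 °C in Col-0. Within each genotype the libraries at 28 °C were the lower ones. Replicate 2 of BRL3ox at 22 °C, a doubted library, was under 2 libraries at 28 °C from other genotypes. The mean response was log2 -0.96, SE 0.11, adjusted p = 1.21e-05, and CHLG was called lower in each genotype. In BRL3ox the change moved to -0.34 (adjusted p = 0.0801) without replicate 1 at 22 °C and was not called without replicate 1 or 2 at 28 °C (adjusted p = 0.0832 and 0.0512), and in pSUC2-BRL3 it was not called without replicate 2 at 22 °C (adjusted p = 0.0765) or replicate 1 at 28 °C (adjusted p = 0.0912).

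CAO, the oxygenase that makes chlorophyll b, lies on the minus strand of chromosome 1 (16848308 to 16851271) with 8 or 9 exons and is listed as CH1 in RefSeq. CAO was found at 231 and 209 CPM at 28 °C against 659 and 548 CPM at 22 °C in brl3-2, and 208 and 391 CPM at 28 °C against 780.4 and 866 CPM at 22 °C in pSUC2-BRL3. It was found at 278 and 253 CPM at 28 °C against 913 and 602 CPM at 22 °C in BRL3ox, and 311 and 284 CPM at 28 °C against 494 and 647 CPM at 22 °C in Col-0. The 2 temperatures did not overlap in any genotype or between genotypes. The mean response was log2 -1.34, SE 0.14, adjusted p = 5.56e-06. The 3 lines fell by -1.45 to -1.52 and Col-0 by -0.94, and with all libraries the difference between these responses was not called for any line. In Col-0 the call was lost without replicate 2 at 22 °C (adjusted p = 0.113) or either replicate at 28 °C (adjusted p = 0.0626 and 0.0959).

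**Figure D2:**
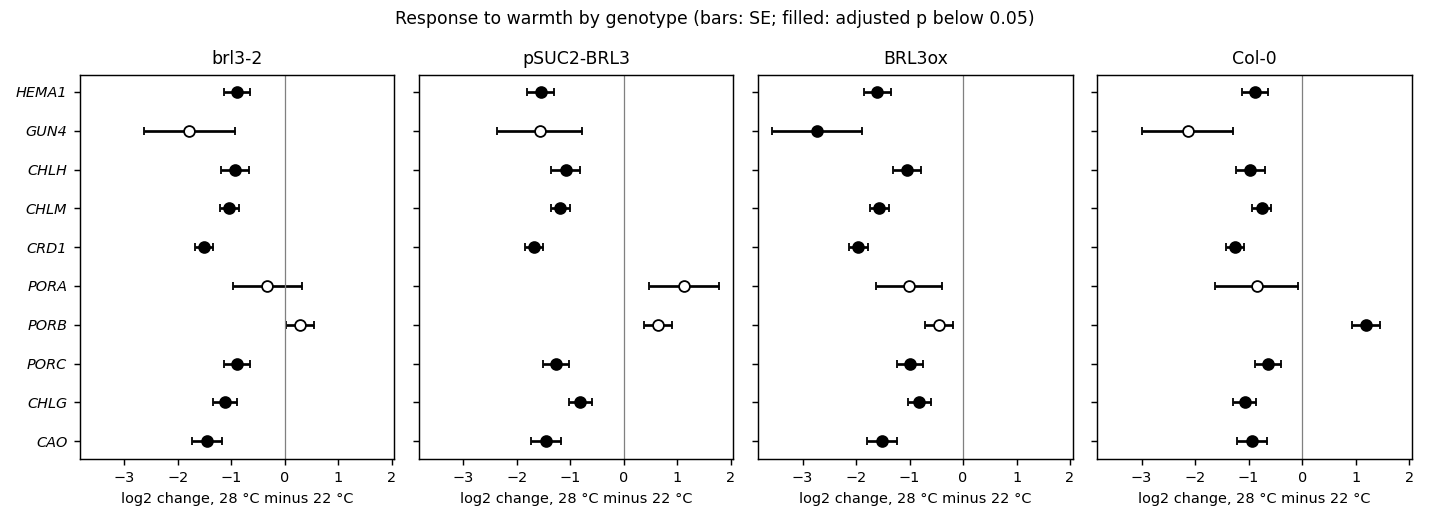
Log2 change at 28 °C minus 22 °C of each gene, with a panel for each genotype; points are the estimates of edgeR's fit, bars their standard errors, and filled points were called at an adjusted p below 0.05. In Col-0 PORB is the single filled point to the right of 0, at 1.19, and in BRL3ox its open point lies at -0.45.

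The 3 protochlorophyllide oxidoreductase genes did not move as a group. PORC lies on the plus strand of chromosome 1 (907523 to 909650) with 5 exons. It stood at 111 and 102 CPM at 28 °C against 209 and 187 CPM at 22 °C in brl3-2, and 73.7 and 119.9 CPM at 28 °C against 212 and 256 CPM at 22 °C in pSUC2-BRL3. In the other lines PORC was at 81.7 and 96.1 CPM at 28 °C against 213 and 142 CPM at 22 °C in BRL3ox, and 127 and 129 CPM at 28 °C against 182 and 216 CPM at 22 °C in Col-0. All 8 libraries at 28 °C lay below all 8 at 22 °C, and PORC fell in the mean (log2 -0.95, SE 0.12, adjusted p = 2.43e-05) and in each genotype. The Col-0 call stood close to the threshold (log2 -0.64, adjusted p = 0.0451). It was lost when any library was left out other than replicate 1 or 2 of pSUC2-BRL3 at 28 °C or of BRL3ox at 22 °C, with adjusted p of up to 0.204, and without the low-count filter (adjusted p = 0.0535). In brl3-2 the call was lost without replicate 1 at 22 °C (adjusted p = 0.0553) or replicate 2 at 28 °C (adjusted p = 0.0542), and in BRL3ox without replicate 1 at 28 °C (adjusted p = 0.0629).

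PORB lies on the plus strand of chromosome 4 (13725546 to 13727440) with 4 or 5 exons. PORB stood at 217 and 195 CPM at 28 °C against 74.2 and 106 CPM at 22 °C in Col-0, where it rose by log2 1.19, SE 0.27, adjusted p = 0.00398. The brl3-2 libraries had 207 and 191 CPM at 28 °C against 181 and 144 CPM at 22 °C (log2 0.29, SE 0.26, adjusted p = 0.378). Both libraries at 28 °C were above both at 22 °C in these genotypes, but only Col-0 passed. In pSUC2-BRL3 the values were 445 and 269.6 CPM at 28 °C against 193 and 265 CPM at 22 °C (log2 0.64, SE 0.26, adjusted p = 0.0717), again with both libraries at 28 °C above both at 22 °C. In BRL3ox they were 301 and 295 CPM at 28 °C against 343 and 473 CPM at 22 °C (log2 -0.45, SE 0.26, adjusted p = 0.195), with both libraries at 28 °C below both at 22 °C. The pSUC2-BRL3 response was called without replicate 2 at 28 °C (log2 0.97, adjusted p = 0.0182) and without either library of BRL3ox at 22 °C (log2 0.64 in each, adjusted p = 0.0447 and 0.0446), and with the other pair left out (log2 0.97, adjusted p = 0.00421). The rise in the mean of the 4 genotypes (log2 0.42, SE 0.13, adjusted p = 0.0135) was called under each alternative, and the Col-0 rise too. PORB shares 71 bases at its end with AT4G27450 on the opposite strand, which had 618 to 4622 counts at 28 °C and 376 to 4339 at 22 °C.

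The response of PORB differed between BRL3ox and Col-0 in the test of the difference itself (log2 -1.65, SE 0.37, adjusted p = 0.0456). PORB was the 1 member called there, where 2.58% of all genes were. The call was narrow: it was lost when 13 of the 16 libraries were left out in turn, with adjusted p of 0.0529 to 0.185, and stayed only without replicate 1 or 2 of pSUC2-BRL3 at 28 °C or replicate 1 of BRL3ox at 22 °C. Without both doubted libraries it was called at -1.40 (adjusted p = 0.0211), and with the other pair left out at -1.41 (adjusted p = 0.02). In a fit of the compared groups only the adjusted p was 0.138. For brl3-2 the difference in PORB was -0.90 (adjusted p = 0.25) and for pSUC2-BRL3 -0.55 (adjusted p = 0.452).

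PORA lies on the minus strand of chromosome 5 (21990864 to 21992814) with 4 or 5 exons, and had 4 to 97 counts per library. PORA was at 1.85 and 1.05 CPM at 28 °C against 2.18 and 1.47 CPM at 22 °C in brl3-2, and 3.33 and 1.67 CPM at 28 °C against 0.559 and 1.74 CPM at 22 °C in pSUC2-BRL3. Its values were 1.85 and 1.28 CPM at 28 °C against 3.01 and 3.27 CPM at 22 °C in BRL3ox, and 0.755 and 0.145 CPM at 28 °C against 1.19 and 0.453 CPM at 22 °C in Col-0. The ranges of the 2 temperatures, 0.145 to 3.33 CPM at 28 °C and 0.453 to 3.27 CPM at 22 °C, covered almost the same levels. PORA was called in none of the 4 genotypes nor in the mean (log2 -0.27, SE 0.34, adjusted p = 0.498). No PORA difference between the temperatures was detectable at these counts.

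Per length, the PORB share of the 3 transcripts was higher at 28 °C than at 22 °C in both libraries of brl3-2, pSUC2-BRL3 and Col-0, and overlapped between the temperatures in BRL3ox. No test was run on these shares or sums. The summed level over all genotypes was 174 to 314 CPM per kilobase at 28 °C (median 217) and 148 to 369 at 22 °C (median 233). The sum was 189 and 174 at 28 °C against 229 and 193 at 22 °C in brl3-2, and 314 and 232 against 236.5 and 305 in pSUC2-BRL3. It was 231 and 234 at 28 °C against 330.1 and 369 at 22 °C in BRL3ox, and 204 and 191 against 148 and 186 in Col-0. The libraries at 28 °C were thus lower in brl3-2 and BRL3ox and higher in Col-0, and overlapped with those at 22 °C in pSUC2-BRL3. PORB made up 62.2% to 86.2% of that sum at 28 °C and 30.6% to 78.0% at 22 °C, PORC nearly all of the rest, and PORA at most 0.638% in any library. In Col-0 the PORB share was 65.0 and 62.2% at 28 °C against 30.6 and 34.8% at 22 °C, and in brl3-2 66.5 and 66.9% against 48.3 and 45.3%. In both, PORC was the larger share in each library at 22 °C and PORB in each library at 28 °C. In pSUC2-BRL3 the PORB share was 86.2 and 70.7% at 28 °C against 49.7 and 52.8% at 22 °C, and in BRL3ox 79.7 and 76.7% against 63.4 and 78.0%. BRL3ox had more PORB than PORC at both temperatures, and the higher of its shares at 22 °C was in the doubted library. The 3 transcripts share no run of 50 bases.

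The lines were then set against Col-0 at each temperature. These comparisons share their Col-0 libraries. At 22 °C PORB was the 1 member called in pSUC2-BRL3 (log2 1.34, SE 0.27, adjusted p = 0.0131) and in BRL3ox (log2 2.18, SE 0.27, adjusted p = 0.00165), where 10.6% and 30.2% of all genes were called. In mean ± SD (n = 2 each) PORB stood at 229 ± 50.8 CPM in pSUC2-BRL3 and 408 ± 91.6 CPM in BRL3ox, against 90.2 ± 22.6 CPM in Col-0. Both libraries of each line were above both of Col-0. The pSUC2-BRL3 call did not hold without replicate 1 of Col-0 (log2 1.11, adjusted p = 0.135) or replicate 2 of pSUC2-BRL3 (log2 1.099, adjusted p = 0.115) at 22 °C. The BRL3ox call was lost in a fit of the compared groups only (log2 2.21, adjusted p = 0.266). In brl3-2 at 22 °C PORB stood at 162 ± 26.7 CPM (n = 2, log2 0.85, SE 0.26, adjusted p = 0.117), and 0 of the 10 genes were called, against 2.24% of all genes. At an unadjusted p under 0.05 there was 1, PORB. The share of all genes at that threshold was not computed, here and below. DESeq2 called 1, PORB, where it called 6.296% of all genes. The median log2 difference of the 10 genes at 22 °C was -0.04 in brl3-2, 0.40 in pSUC2-BRL3 and 0.31 in BRL3ox, against -0.03, -0.04 and -0.05 over all genes.

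At 28 °C edgeR called 0 of the 10 genes in brl3-2, pSUC2-BRL3 or BRL3ox against Col-0, where 3.62%, 0.858% and 2.07% of all genes were called. At an unadjusted p under 0.05 there was 1 in brl3-2 (PORA), 2 in pSUC2-BRL3 (PORA and PORB) and 4 in BRL3ox (CHLM, CRD1, PORA and PORC). The shares of all genes just given are for adjusted p and do not apply to these counts. DESeq2 called 0, 1 (PORA) and 1 (CRD1), where it called 7.242%, 3.346% and 5.76% of all genes. PORB at 28 °C was at 199 ± 11.2 CPM in brl3-2, 357 ± 124 CPM in pSUC2-BRL3 and 298 ± 4.48 CPM in BRL3ox, against 206 ± 15.5 CPM in Col-0 (mean ± SD, n = 2 each). CRD1 at 28 °C was at 998 ± 3.345 CPM in BRL3ox and 1408 ± 71.5 CPM in Col-0 (log2 -0.50, SE 0.17, adjusted p = 0.168), without overlap but not called. Against brl3-2, pSUC2-BRL3 had 0 members called at 22 °C and 0 at 28 °C, where 0.307% and 1.61% of all genes were called. At an unadjusted p under 0.05 there were 2 at 22 °C (HEMA1 and CHLM) and 2 at 28 °C (CHLM and PORB). DESeq2 called 0 and 1 (PORB), where it called 4.696% and 5.179% of all genes.

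Without both doubted libraries the fit called more members in most of these comparisons. It also called more of all genes, except in BRL3ox against Col-0 at 22 °C, where it called fewer than with all libraries. In BRL3ox against Col-0 at 28 °C 5 were called lower, HEMA1 at -0.50, CHLH at -0.50, CHLM at -0.39, CRD1 at -0.50 and PORC at -0.52 on the log2 scale, and the other pair gave the same 5; of all genes 16.7% were called there without both doubted libraries. In pSUC2-BRL3 against Col-0 at 22 °C HEMA1, CHLM, PORB and CAO were called higher, at 0.52, 0.49, 1.35 and 0.53, where 31.6% of all genes were called in either direction, so 4 of 10 is close to the share of all genes. In BRL3ox at 22 °C PORB (1.93) and CAO (0.68) were called higher, and in brl3-2 at 22 °C PORB (0.85), where 16.8% and 16.4% of all genes were called. These counts of 2 and 1 of 10 are also close to the share of all genes. In pSUC2-BRL3 against brl3-2 HEMA1 (0.70) and CHLM (0.55) were called higher at 22 °C, and CHLM (0.66) and CAO (0.83) at 28 °C, where 17.8% and 6.86% of all genes were called. With the other pair left out the genes called at 28 °C were CHLH (-0.48) and PORB (1.17). For pSUC2-BRL3 against Col-0 at 28 °C the count was 0 without both doubted libraries and 4 with the other pair left out (CHLH -0.62, PORA 2.85, PORB 1.12 and PORC -0.79), where 3.45% and 10.3% of all genes were called, so that count depended on which pair was left out.

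The responses to 28 °C were then compared between each line and Col-0. For brl3-2 and pSUC2-BRL3 0 of the 10 genes were called in the test of the difference, where 0.878% and 1.95% of all genes were. At an unadjusted p under 0.05 there was 1 (PORB) and 0. DESeq2 called 0 and 0, where it called 4.887% and 6.145% of all genes. For BRL3ox PORB alone was called by edgeR, and 3 genes (CHLM, CRD1 and PORB) had an unadjusted p under 0.05. DESeq2 called the same 3, where it called 8.827% of all genes. The share of all genes at an unadjusted p under 0.05 was not computed. Without both doubted libraries HEMA1 (-0.95), CHLM (-0.74), PORB (-1.40) and CAO (-0.85) were called for BRL3ox, and PORB (-0.90) for brl3-2, where 6.84% and 13.4% of all genes were called. For pSUC2-BRL3 no member was called without both doubted libraries, and HEMA1, CHLH, CHLM, PORC and CAO were called with the other pair left out, from log2 -0.63 for CHLH to -1.102 for HEMA1, where 15.6% of all genes were called. A difference that missed the threshold is not shown to be absent: for CRD1 in BRL3ox it was log2 -0.70, SE 0.24, adjusted p = 0.118.

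The order of the 8 groups was not the same for each gene. For HEMA1, CHLH, CHLM, CRD1 and PORC the lowest mean was that of BRL3ox at 28 °C and the highest that of pSUC2-BRL3 at 22 °C. For HEMA1 these were 367 ± 4.87 CPM in BRL3ox at 28 °C and 1371 ± 112 CPM in pSUC2-BRL3 at 22 °C, and for CRD1 998 ± 3.345 CPM and 4286 ± 299 CPM in the same groups (mean ± SD, n = 2 each). Neighbours in these orders mostly overlapped: for HEMA1 the replicates of adjacent groups were apart only between brl3-2 at 22 °C and Col-0 at 28 °C and between brl3-2 and BRL3ox at 28 °C. For CAO the lowest mean was that of brl3-2 at 28 °C (220.2 ± 15.7 CPM), and for CHLG the highest was Col-0 at 22 °C (199 ± 10.9 CPM). For PORB the order ran from BRL3ox at 22 °C, pSUC2-BRL3 at 28 °C and BRL3ox at 28 °C, which overlapped in that order, down to brl3-2 and Col-0 at 22 °C, which stood apart from each other.

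The other genes of the pathway were counted next. Of all genes tested 35.9% rose and 33.5% fell in the mean response, against which the counts of this list and of those that follow stand. Those shares are for the fit of all libraries. Shares by direction are not given for the fits without the doubted libraries. Of 21 other enzymes and regulators of chlorophyll synthesis, 0 rose and 20 fell in the mean response, with a median log2 change of -0.50 where all genes had 0.03. CHLP, the geranylgeranyl reductase that makes the phytyl tail, fell by log2 -1.21, SE 0.09, adjusted p = 4.05e-07, and stood at 1245 and 1196 CPM at 28 °C against 2458 and 2815.5 CPM at 22 °C in Col-0. LCAA, a further cyclase subunit, fell by log2 -1.14, SE 0.06, adjusted p = 7.62e-08, and the uroporphyrinogen decarboxylase genes HEME1 and HEME2 by -1.07 and -1.06. HEMA2, another glutamyl-tRNA reductase gene, was the 1 gene of the list not called (log2 -0.24, SE 0.13, adjusted p = 0.128). By genotype 13 of the 21 fell in brl3-2, 12 in pSUC2-BRL3, 14 in BRL3ox and 19 in Col-0, and 0 rose in any. Leaving out both doubted libraries, 18, 12, 16 and 19 fell in that order and 1 rose in brl3-2, and 20 fell in the mean.

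In the branches that draw on the same precursors, heme, bilins and siroheme, 2 of 8 tested genes rose and 6 fell in the mean response, with a median of -0.40. Both counts were the same without both doubted libraries, and with the other pair left out 1 rose and 6 fell. HO4, a heme oxygenase, was at -1.43 and at most 1.02 CPM in each library. HY2, which makes the phytochrome chromophore, was at -0.79 and the ferrochelatase gene FC2 at -0.77. The other ferrochelatase gene, FC1, rose in the mean response (log2 0.55, SE 0.22, adjusted p = 0.0477), close to the threshold. Both libraries at 28 °C were above both at 22 °C in brl3-2 and pSUC2-BRL3. The temperatures overlapped in BRL3ox and in Col-0, where FC1 was at 19.6 and 28.2 CPM at 28 °C against 49.5 and 21.0 CPM at 22 °C. FC1 was also higher in brl3-2 than in Col-0 at 28 °C, at 115 and 177 CPM against 19.6 and 28.2 CPM (log2 2.61, adjusted p = 0.0136), and lower in pSUC2-BRL3 than in brl3-2 at 28 °C, at 18.3 and 29.2 CPM (log2 -2.62, adjusted p = 0.0234). The first was not called without replicate 1 or 2 of Col-0 at 28 °C or replicate 2 of brl3-2 at 28 °C, and the other without replicate 2 of brl3-2 at 28 °C or either replicate of pSUC2-BRL3 at 28 °C, or in a fit of the compared groups only (adjusted p = 0.0733). At 22 °C FC1 was called lower in pSUC2-BRL3 than in Col-0 (log2 -1.70, adjusted p = 0.0417). That call was lost when some single libraries were left out. Among 11 genes of chlorophyll b reduction and breakdown 5 rose and 5 fell, with a median of 0.17, and without both doubted libraries 6 rose and 5 fell. SGRL, a STAY-GREEN-like gene, fell by log2 -2.14, SE 0.21, adjusted p = 3.15e-06, CLH1, a chlorophyllase gene, by -1.06 and HCAR, a reductase of the route from chlorophyll b to a, by -1.03. CLH2, the other chlorophyllase gene, rose (log2 1.71, SE 0.20, adjusted p = 1.53e-05), at levels of at most 2.47 CPM, and shares 913 bases with a gene on the opposite strand.

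The light-harvesting antenna proteins bind the chlorophyll that the pathway makes. Of 16 tested antenna genes 0 rose and 16 fell in the mean response, with a median of -1.34. LHCB2.4 was at -2.68, LHCB1.1 at -2.12, LHCB1.4 at -2.09 and LHCB4.2 at -1.74. LHCB1.5 had no count in any library, and all of its 1045 bases overlap a gene on the opposite strand. The reason for its lack of counts was not tested. The LHCB1 and LHCB2 copies are near-identical, so that reads may be split between them. The summed antenna level was 45064 to 75001 CPM at 28 °C and 99871 to 239950 CPM at 22 °C. By genotype 14 fell in brl3-2, 16 in pSUC2-BRL3, 16 in BRL3ox and 12 in Col-0, and without both doubted libraries 16, 16, 16 and 15 in that order.

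**Figure D3:**
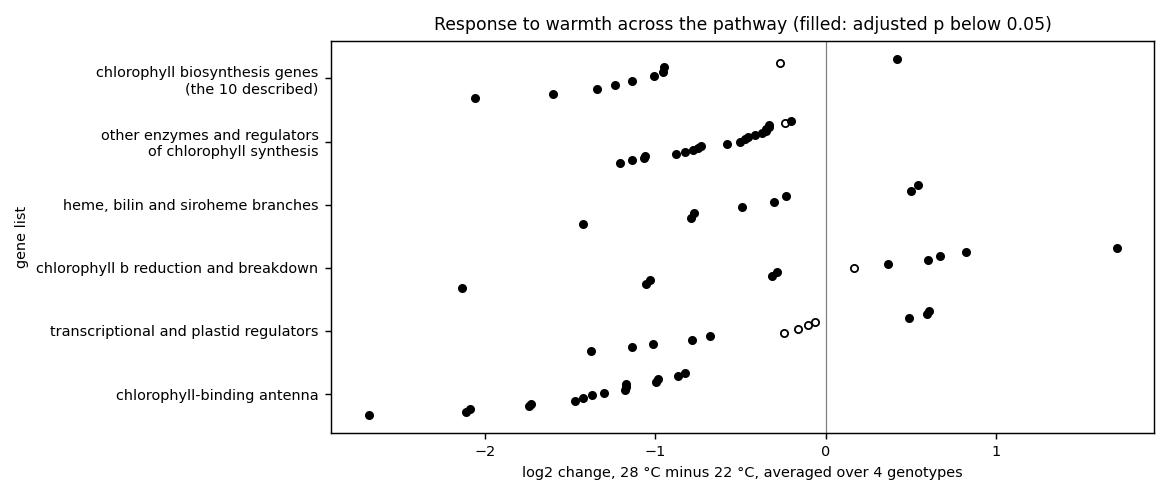
Log2 change at 28 °C minus 22 °C, averaged over the 4 genotypes, of each tested gene in 6 lists set one above the other; a point is a gene, and filled points were called at an adjusted p below 0.05. All 16 antenna genes and 20 of the 21 further synthesis genes are filled points left of 0, whereas breakdown genes fall on both sides.

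Of 12 transcriptional and plastid regulators 3 rose and 5 fell in the mean response, with a median of -0.20, shares near those of all genes. In the fit without both doubted libraries 3 rose and 6 fell. HYH and HY5, bZIP activators of light-regulated genes, fell by -1.38 and -1.14. GLK1, an activator of chlorophyll and antenna genes, fell by log2 -1.01, SE 0.09, adjusted p = 1.37e-06 and the GATA factor gene CGA1 by -0.79. The response of GLK1 was not the same in each line: it stood at 75.4 and 74.7 CPM at 28 °C against 72.2 and 86.6 CPM at 22 °C in pSUC2-BRL3, and at 43.4 and 40.5 CPM against 164 and 163 CPM in Col-0 (log2 difference of the responses 1.88, adjusted p = 0.00833). CGA1 was lower than in Col-0 at 28 °C in all 3 lines, by -1.23 in brl3-2, -1.46 in pSUC2-BRL3 and -2.18 in BRL3ox, with adjusted p of 0.00114 to 0.013. Leaving out single libraries at 28 °C ended the call in brl3-2 (replicate 1 or 2 of Col-0, or replicate 1 of brl3-2) and in pSUC2-BRL3 (replicate 1 or 2 of Col-0, or replicate 1 of pSUC2-BRL3), but not in BRL3ox. In a fit of the compared groups only the pSUC2-BRL3 call was also lost (adjusted p = 0.05005). Its levels at 28 °C were 8.53 and 13.9 CPM in brl3-2, 9.85 and 9.27 CPM in pSUC2-BRL3 and 6.65 and 4.93 CPM in BRL3ox, against 24.1 and 28.6 CPM in Col-0. At 22 °C CGA1 was also called lower in BRL3ox than in Col-0 (log2 -1.12, adjusted p = 0.00635), but not in a fit of the compared groups only (adjusted p = 0.266). PIF4 was not called in the mean response (log2 -0.16, SE 0.10, adjusted p = 0.181).

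Clock genes and markers of other tissues were read in the same comparison. Of 10 clock genes 6 rose and 2 fell in the mean response, with a median of 0.78, and without both doubted libraries 7 rose and 2 fell. LHY, a morning gene, stood at 143 and 105 CPM at 28 °C against 811 and 677 CPM at 22 °C in Col-0, and PRR5, which peaks later in the day, at 5.71 and 7.13 against 0.537 and 0.647 CPM. Within BRL3ox at 22 °C the doubted replicate 2 had LHY at 126 CPM and PRR5 at 10.7 CPM, where replicate 1 had 406 and 0.363 CPM. The labels give no time of harvest, and the part of the clock in the changes of the 10 genes was not tested. The summed level of 8 stomatal lineage and guard cell markers was 64.6 to 83.4 CPM at 28 °C and 80.2 to 125 CPM at 22 °C, with 0 higher and 6 lower of 8. The 5 vascular markers summed to 132 to 152 CPM at 28 °C and 138 to 178 CPM at 22 °C (1 higher and 1 lower of 5). Root markers summed to 25.3 to 41.1 CPM at 28 °C and 11.5 to 26.3 CPM at 22 °C (2 higher and 2 lower of 5 tested), and shoot apex markers to 69.7 to 99.9 CPM at 28 °C and 32.9 to 78.9 CPM at 22 °C (2 higher and 1 lower of 3 tested). When both doubted libraries were left out these counts were the same, apart from 2 vascular markers lower. The counts were not tested against the shares of all genes that rose and fell. The part of these tissues in the changes of the 10 genes was not tested.

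The log2 CPM of each gene was correlated with the mean of the other 9, as a description over libraries that share the temperature difference. Pearson's r was 0.96 for CAO, 0.95 for CRD1, 0.95 for HEMA1, 0.94 for CHLM, 0.88 for PORC, 0.86 for CHLH, 0.83 for GUN4 and 0.80 for CHLG, against 0.10 for PORA and -0.27 for PORB. Within the 8 libraries at 28 °C r was 0.18 (PORC) to 0.80 (CHLM) for those 8 members, against -0.24 for PORA and -0.19 for PORB. Within the 8 at 22 °C it was -0.18 (CHLG) to 0.90 (CAO), with CHLH at 0.10, PORA at 0.11 and PORB at 0.23, so the members were not divided in that way at 22 °C. Outside the 10 genes, the named genes most like their mean, of 6771 with a symbol and at least 5 CPM, were LHCB6, an antenna gene (r = 0.97), PPD6, a gene of the PsbP domain family (r = 0.97), HCF107 (r = 0.97), NDF5, needed for the chloroplast NDH complex (r = 0.97), and PSAH2, a photosystem I subunit gene (r = 0.97). Within the libraries at 28 °C their r was 0.76 to 0.96, and within those at 22 °C 0.64 to 0.80.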

How the data were processed

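Raw read counts per gene were used as deposited. The tools named in the submitters' processing notes are FastQC 0.11.2, Trimmomatic 0.38, HISAT2 2.1, featureCounts 1.6.2 and edgeR 3.34.1, with TAIR10 as build. The kit marks strand, per the labels' protocols. For annotation, read layout and the strand setting of the counting, nothing is stated in the sources used here. A line without a gene name, 0.0013% to 0.0046% of a library, was left out.

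All 16 libraries entered a fit of edgeR 4.0.16 (R 4.3.3) with TMM scaling, a coefficient per group and 8 residual degrees of freedom. Low genes were removed with filterByExpr (minimum count 10, total 15). Quasi-likelihood tests were two-sided, with Benjamini-Hochberg adjustment over 20505 genes within each of 16 comparisons. Shares of all genes are for adjusted p, and none was computed for an unadjusted p under 0.05. CPM used TMM-scaled library sizes, and lengths, positions and promoters came from the RefSeq genome TAIR10.1. Alternatives were DESeq2 1.42.0, its size factors, no filter, a replicate block, nuclear genes only, compared groups only and leaving out libraries. The members and lists were chosen with earlier results of these data known. All 10 members are named. From each other list up to 4 genes are named, those with the largest change among the called ones in the mean response. HEMA2, PIF4, the markers SUC2, COBL9, EXPA7, CASP1, PHT1;4, IRT1, STM, ANT, WUS and CLV3, and the genotype results of FC1 and CGA1 were named after their values were seen. The alternatives for FC1, CGA1 and the other lists, and the other pair of libraries, were chosen after seeing the data. The fit was tested on simulated data. Depth per library sets the precision, and genes with few counts have wide errors.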

Additional observations from a re-analysis of the deposited data

Results flagged for a closer look

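In 7 cases the response to 28 °C of a line differed from that of Col-0 in edgeR's test of the difference between responses, with all genes adjusted together. The cases come from the 10 genes and the other lists. Of all genes tested 0.878% were called in this test for brl3-2, 1.95% for pSUC2-BRL3 and 2.58% for BRL3ox. Whether the 7 cases exceed these shares was not tested. Among the 10 chlorophyll genes the case was PORB in BRL3ox, at -1.65 on the log2 scale (adjusted p = 0.0456).

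The other cases were genes of the lists. The chlorophyllase gene CLH2 differed by 2.94 in brl3-2 (adjusted p = 0.0456) and by 2.53 in BRL3ox (adjusted p = 0.0364), at 0.168 to 2.47 CPM over all libraries. GLK1 differed by 1.88 in pSUC2-BRL3 (adjusted p = 0.00833) and by 1.34 in BRL3ox (adjusted p = 0.0238). SGR2, a STAY-GREEN gene, differed by 2.103 in BRL3ox (adjusted p = 0.0305), and the phosphate transporter gene PHT1;4 by 2.13 in BRL3ox (adjusted p = 0.0459).

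When libraries were left out in turn, the GLK1 difference in pSUC2-BRL3 was called in 15 of 16 fits and was lost without replicate 1 of Col-0 at 28 °C. GLK1 in BRL3ox was called in 11, SGR2 in 8, CLH2 in 5 for BRL3ox and 4 for brl3-2, PORB in 3 and PHT1;4 in 2. Without both doubted libraries all 7 were called, in a fit that left 1 library each of BRL3ox at 22 °C and pSUC2-BRL3 at 28 °C and took their spread from the other groups. In fits of the compared groups only, SGR2 (adjusted p = 0.14), PORB, CLH2 and GLK1 (0.163) in BRL3ox and PHT1;4 (0.199) were not called.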

How the results depend on the processing

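Over the 5 temperature comparisons, 39 calls of the 10 genes were made. All 39 kept their direction and call with DESeq2, with its size factors, with nuclear genes only and without either pair of doubted libraries, 38 without the low-count filter, 38 with a replicate block, 23 of 30 in fits of the compared groups only (not run for the mean response), and 34 to 39 when a library was left out in turn. Both pairs of doubted libraries leave out replicate 2 of BRL3ox at 22 °C, so they do not check the calls without replicate 1. Without that replicate the BRL3ox calls of GUN4, CHLH and CHLG were lost. Replicate numbers did not pair the libraries (correlations of -0.294 to 0.267 over 28 pairs of groups, 8 of them over 0.1). With the replicate block as a term 2 genes were called for BRL3ox against Col-0 at 22 °C and 0 for the difference of its response. Of all genes 27.01% and 1.517% were called there. The block also ended the calls of the PORC fall in Col-0 (adjusted p = 0.0567) and, among differences of responses from Col-0's, of PORB (0.0651), CLH2 (0.0547) and PHT1;4 (0.0557) in BRL3ox and CLH2 in brl3-2 (0.0744). The causes of the changes below were not tested.

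In fits of the compared groups only, 2 of the 10 genes were called for the BRL3ox response (8 with all libraries), against 1.527% of all genes. Between lines and Col-0 at 22 °C these fits called 1 in brl3-2, 4 in pSUC2-BRL3 and 0 in BRL3ox, at 28 °C 1 in brl3-2 and 7 in BRL3ox, and 2 in pSUC2-BRL3 against brl3-2 at 22 °C, where 9.55%, 25.61%, 0%, 14.19%, 15.06% and 16.73% of all genes were called in that order. For differences of responses they called 1 in brl3-2 and 0 in BRL3ox, against 13.02% and 0% of all genes. Without both doubted libraries, and with the other pair left out, 1, 4 and 2 genes were called against Col-0 at 22 °C in brl3-2, pSUC2-BRL3 and BRL3ox, 5 in BRL3ox at 28 °C, and for differences of responses 1 in brl3-2 and 4 in BRL3ox. In pSUC2-BRL3 against brl3-2 both called 2 at 28 °C, and at 22 °C they called 2 and 3. The other pair also gave 1 in brl3-2 and 4 in pSUC2-BRL3 at 28 °C and 5 for the difference of the pSUC2-BRL3 response. DESeq2 called 1 in brl3-2 and 3 in BRL3ox at 22 °C, 1 each in pSUC2-BRL3 and BRL3ox at 28 °C, 1 in pSUC2-BRL3 against brl3-2 at 28 °C, and 3 for the difference of the BRL3ox response. Of all genes DESeq2 called 6.296%, 34.15%, 3.346%, 5.76%, 5.179% and 8.827% in that order. Without the low-count filter 2 were called in BRL3ox at 22 °C, where 21.79% of all genes were called.

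Leaving out a library in turn gave 4 to 8 calls in brl3-2, 5 to 9 in pSUC2-BRL3, 4 to 8 in BRL3ox, 4 to 9 in Col-0 and 9 in the mean response. The low counts came without replicate 1 at 22 °C in brl3-2 (4), without replicate 1 at 22 °C (5) or 1 or 2 at 28 °C (4 and 5) in BRL3ox, and without replicate 2 at 22 °C (5) or 1 or 2 at 28 °C (4 each) in Col-0. Against Col-0 at 22 °C the range was 0 to 1 in brl3-2, 0 to 2 in pSUC2-BRL3 and 1 to 3 in BRL3ox, and for the difference of the BRL3ox response 0 to 4; the other comparisons of the 10 genes stayed at 0. The lists gave 20 to 21 of the further synthesis genes, 7 to 8 of the heme, bilin and siroheme genes, 10 to 11 of the breakdown genes, 8 to 10 of the regulators and 16 antenna genes. The temperature response of PORA, not called in any genotype with all libraries, changed sign in Col-0 without replicate 1 at 22 °C (log2 0.0172, range over the left-out libraries -2.47 to 0.0172) and in brl3-2 without replicate 2 at 28 °C (log2 0.0104, range -0.796 to 0.0104). Depth limits GUN4 and PORA, the genes with the fewest counts. The values of GUN4 are also uncertain because most of its exon is shared with a gene on the opposite strand.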

Other observations

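Among the root markers, IRT1, an iron transporter gene known from the root epidermis, had no count in any of the 8 libraries at 28 °C and reached 7.97 CPM at 22 °C. Whether root tissue or another difference between the samples goes with this was not tested.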
